A study of Bos taurus with 4 samples.

Results

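The cell adhesion and junction genes of the early cow embryo are described here in 4 polyadenylated RNA libraries from Bos taurus embryos. Members were taken by symbol from the deposited expression table: cadherins with a number, protocadherins, catenins, nectins, integrins, claudins, junctional adhesion molecules, zonula occludens (TJP) genes, desmosomal genes, partitioning-defective (PARD) genes, and OCLN, CGN, EPCAM, CRB3, PRKCI, AMOT and YAP1. The rule found 114 genes on 116 rows, of 14002 genes on 14517 rows in the table. It used names alone and no expression value. No row was given the symbol TJP1, PARD3 or YAP1, so these genes were not analysed here.

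All embryos were at the 8- to 16-cell stage, collected 3 days after insemination, and all had been injected as zygotes. The control embryos (NC, n = 2 libraries) received negative control siRNAs, short RNAs with no intended target. The knockdown embryos (KDM5_KD, n = 2 libraries) received siRNAs against KDM5A, KDM5B and KDM5C, whose enzymes erase lysine 4 methylation on histone H3. The labels of KDM5_KD replicate 2 disagree with each other. By title it is a Kdm5 knockdown, but the siRNAs listed under treatment are those for KDM6 genes. It was kept in the group of its title, and the values of the main genes without it are given. The labels do not give breed, embryo number per library or whether replicates came from separate collections, so the p-values measure only the spread between these libraries. Injected siRNAs lower a transcript and need not remove it.

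Adhesion genes build the contacts with which blastomeres flatten against each other at compaction and later seal the outer epithelium. Classical cadherins bind between cells and are tied to actin through catenins, nectins start contacts beside them, desmosomes add strength, and claudins and occludin close the paracellular space. The PAR complex and atypical protein kinase C mark the apical side, and angiomotin passes contact information to the Hippo pathway. Integrins are pairs of an alpha and a beta chain that hold cells to extracellular matrix.

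The siRNA targets with a row were lower in both knockdown libraries. KDM5A was at 28.4 and 27.1 FPKM in NC replicates 1 and 2, and at 10.5 and 10.1 FPKM in KDM5_KD replicates 1 and 2 (limma adjusted p of 0.0333). KDM5C was at 28.1 and 40.6 FPKM against 15.1 and 17.8 FPKM (limma adjusted p of 0.123). The treatment entry of KDM5_KD replicate 2 names KDM6 genes, of which only KDM6A was read here. KDM6A was at 9.29 FPKM in that library, within the range of the controls (7.63 and 11.3 FPKM). In this order, replicate 1 before replicate 2 and NC before KDM5_KD, all pairs of values are given. FPKM are fragments scaled to transcript length and library size, so levels can be compared between genes. Column sums ran from 283347 to 322267 FPKM, and read depth is unknown. The oocyte and embryo markers GDF9, BMP15, ZP3, OOEP and POU5F1 were all detected, between 6.51 and 172 FPKM. Of the 11 rows of the whole oocyte and embryo list, 4 lay entirely above the controls and none below, where the shares of all transcripts were 35.1% and 15.6%. At an unadjusted limma p under 0.05, 2 were higher, as were 14.3% of all transcripts. The counts of rows higher were thus near the background. The median log2 fold change of the list was 0.34, against 0.09 for all transcripts. BMP15, an oocyte growth factor, was at 117.5 and 83.8 FPKM against 149 and 172 FPKM. ZAR1, with the second largest difference of the list, was at 13.2 and 6.32 FPKM against 9.91 and 21.9 FPKM, with overlap. Its log2 fold change was 0.63, or 0.10 without KDM5_KD replicate 2.

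By mean level over the 4 libraries, 6 member rows were at 50 FPKM or more, 19 between 10 and 50, 36 between 1 and 10, and 51 below 1. Another 4, CDH16, CDH19, PCDH12 and CLDND2, were listed at 0 in every library. The 61 rows (60 genes) with a mean of at least 1 FPKM were tested. Their median level was 7.24 FPKM, against 10.5 FPKM for all 8970 transcripts tested. Together the 116 rows made up between 0.360% and 0.381% of each library's summed FPKM. A mean over all libraries was used as the filter. It let in 5 rows with 1 group under 1 FPKM: CDH11, CDH7 and CTNNA2 through KDM5_KD, and CLDN4 and PCDH1 through NC.

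Across the members, the largest differences were in integrin and cadherin genes of moderate or low level. The fibronectin receptor chains ITGA5 and ITGB1, the vitronectin receptor chain ITGAV, the laminin receptor chain ITGA6, N-cadherin (CDH2), CDH8, CDH11, NECTIN2 and 1 row of PCDHGC3 were at least 2-fold higher in KDM5_KD. E-cadherin (CDH1), P-cadherin (CDH3), EPCAM, F11R and plakoglobin (JUP) differed by less than 0.2 on the log2 scale. The members furthest in the other direction were CLDN4, PCDH1, PCDH8 and CLDN6. In these whole-embryo libraries, more RNA per cell and more cells of a type cannot be told apart. Differences are of group means of log2(FPKM + 1), which understates changes of low transcripts.

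No member passed the threshold of a limma adjusted p under 0.05 over all transcripts. The lowest adjusted p among members was 0.0898, for ITGB1. In the same fit 0.19% of all transcripts were called higher and 0.0892% lower. Without adjustment, 14 member rows were higher and 3 lower at a limma p under 0.05 (23.0% and 4.92% of the 61), against a background of 14.3% and 3.12%. Both knockdown libraries lay above both controls for 24 rows (39.3%) and below for 7 (11.5%). For all transcripts these shares were 35.1% and 15.6%, so the members' counts were close to the background. The split of 24 and 7 became 20 and 9 (32.8% and 14.8%) with median-ratio scaling of the libraries, against 25.9% and 25.4% of all transcripts. After quantile normalization it was 17 and 14 (27.9% and 23.0%), against 20.9% and 28.1%. At least 2-fold higher were 9 rows (14.8%), against 4.52% of all transcripts, and no member was 2-fold lower, where the background was 0.301%. This depended on the pseudocount of 1. With a pseudocount of 0.1, 10 members were 2-fold higher, against 7.97% of all transcripts, and 2 were 2-fold lower. By group means CLDN4 was 3.12-fold and PCDH1 3.40-fold lower in KDM5_KD. The 9 rows became 4 without NC replicate 2, 11 without NC replicate 1 and 3 after quantile normalization, where the shares of all transcripts were 2.79%, 7.13% and 2.90%. The median difference was 0.22 for members and 0.09 for all transcripts.

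**Figure D1:**
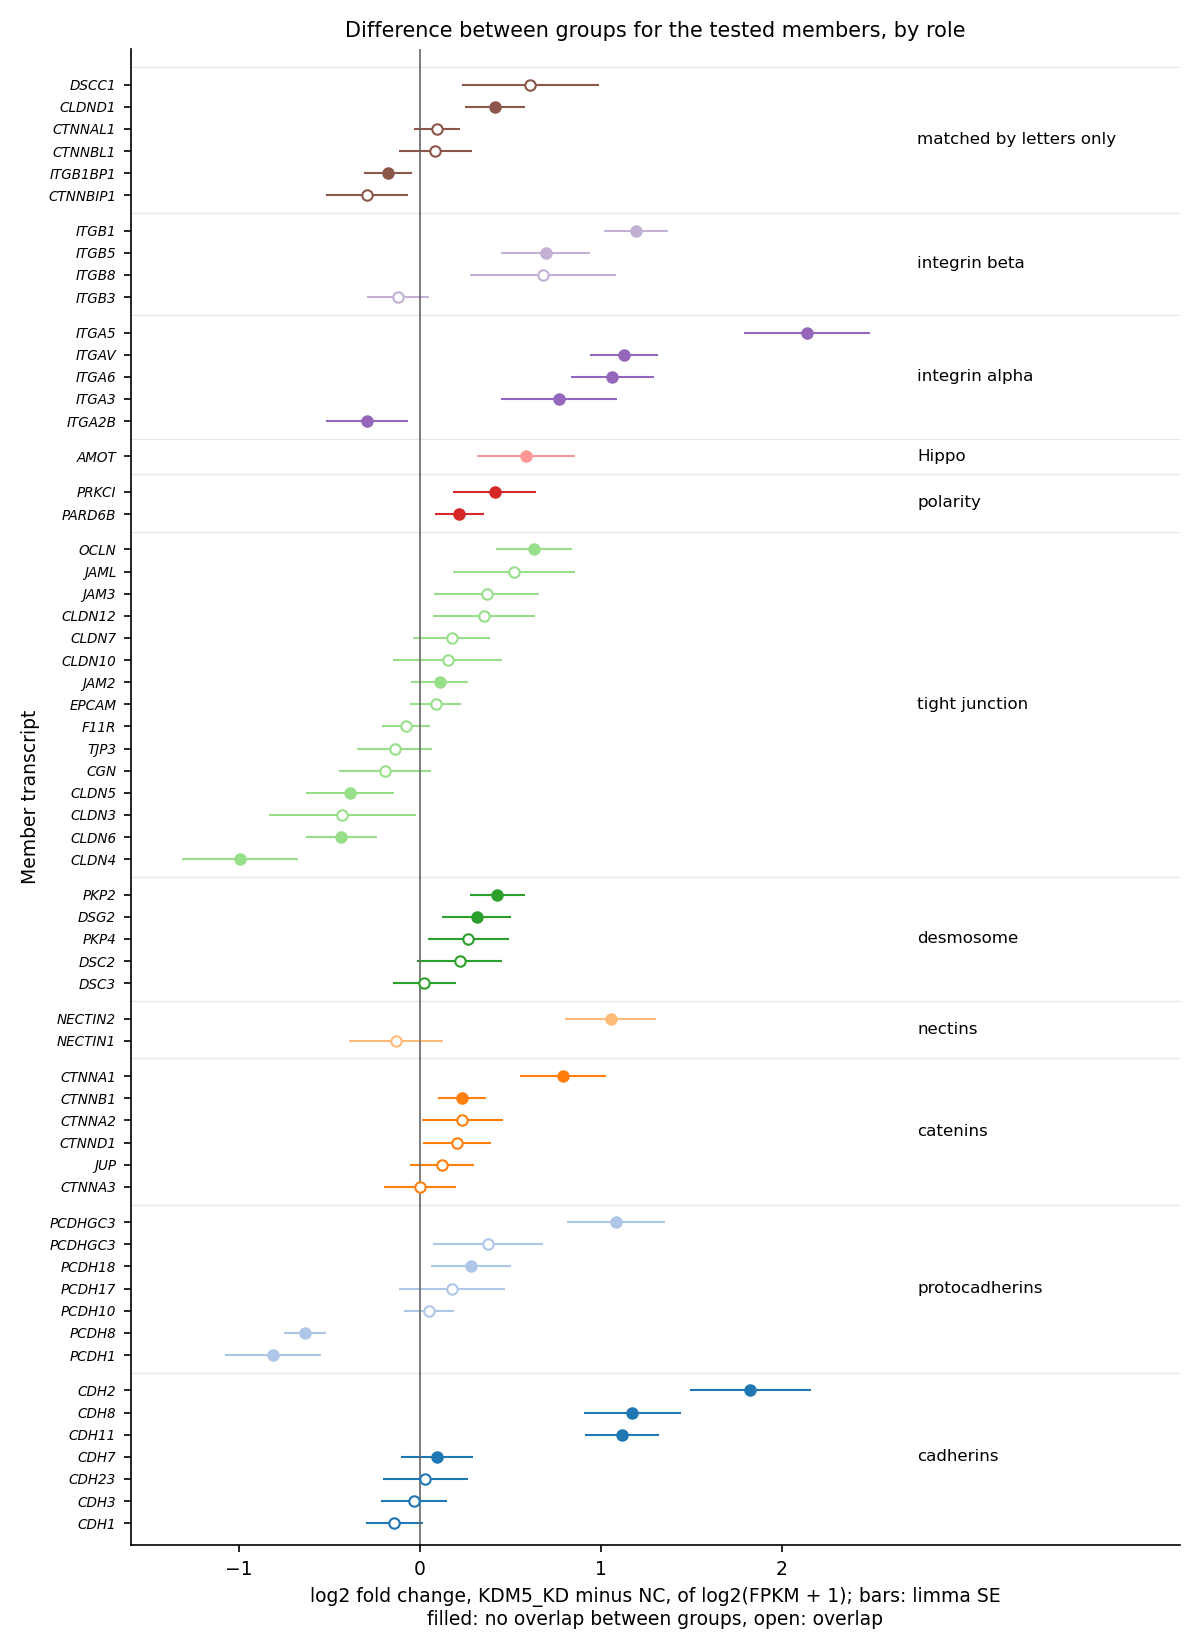
Difference between KDM5_KD and NC for 60 of the 61 tested member rows, by role, as the difference of mean log2(FPKM + 1) with its limma standard error (n = 2 libraries per group); filled points have no overlap between the groups. ITGA5 (2.14), CDH2 (1.83) and ITGB1 (1.20) lie furthest to the right, and CLDN4 and PCDH1 furthest to the left, down to -0.996.

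CDH1, which encodes the adhesive protein of compaction, was the most abundant member. It was at 126 and 166 FPKM in NC replicates 1 and 2, and at 127 and 135 FPKM in KDM5_KD replicates 1 and 2. The groups overlapped (log2 fold change -0.14, SE 0.157, limma adjusted p 0.692). CDH3, its neighbour in the genome, was at 9.40 and 8.88 FPKM against 8.01 and 9.91 FPKM, also with overlap.

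CDH2 encodes N-cadherin, typical of mesenchymal and neural cells. It was at 6.18 and 2.61 FPKM in NC compared with 15.8 and 18.3 FPKM after knockdown, which is 3.89-fold higher by group means. Both knockdown values exceeded both controls, and NC replicate 1 was between NC replicate 2 and the knockdown (log2 fold change 1.83, SE 0.335, limma adjusted p 0.107). CDH8 and CDH11 are adjacent genes for type II cadherins. CDH11 was at 0.557 and 0.391 FPKM in the controls against 2.35 and 2.04 FPKM in KDM5_KD. CDH8 was at 1.77 and 1.03 FPKM against 5.31 and 3.55 FPKM. Their log2 fold changes were 1.12 (SE 0.206) and 1.17 (SE 0.269), with limma adjusted p of 0.107 and 0.133. Of the 7 cadherin rows tested, 4 lay above NC and none below, where the shares of all transcripts were 35.1% and 15.6%. The fourth, CDH7, differed by 0.09. CDH11 and CDH7 averaged under 1 FPKM in NC and passed the filter only through KDM5_KD, where they were higher. The count was 4 above and 1 below (CDH1) with median-ratio scaling, against 25.9% and 25.4% of all transcripts. It was 3 above and 3 below after quantile normalization, against 20.9% and 28.1%, and CDH2, CDH8 and CDH11 stayed above. Dividing a library by a single factor does not change the ratio of CDH2 to CDH1 within it, while quantile normalization can. As deposited, this ratio was 0.0489 and 0.0157 in NC and 0.124 and 0.135 in KDM5_KD. E-cadherin transcripts therefore still outnumbered N-cadherin per length, by 8.05 and 7.38 to 1 in the knockdown libraries, compared with 20.5 and 63.8 to 1 in the controls.

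Integrins had the highest median difference of the roles. Of 9 integrin rows tested, 6 lay above NC and 1 below, and their median log2 fold change was 0.77. For all transcripts the shares above and below NC were 35.1% and 15.6%. After quantile normalization 5 integrin rows lay above and 1 below, against 20.9% and 28.1% of all transcripts. ITGA3 then overlapped and the median of the integrins was 0.47. ITGB1 encodes the beta-1 chain, the partner of most alpha chains. It was at 26.4 and 19.0 FPKM in the controls, and 52.4 and 53.0 FPKM after knockdown. This is 2.32-fold higher by group means (log2 fold change 1.20, SE 0.178, limma adjusted p 0.0898). ITGA5 pairs with ITGB1 in the main fibronectin receptor. Its levels were 4.63 and 1.71 FPKM in NC compared with 16.3 and 16.2 FPKM in KDM5_KD, or 5.12-fold by group means. The knockdown libraries were nearly equal and the controls differed from each other (log2 fold change 2.14, SE 0.349, limma adjusted p 0.0970). The summed level of 16 cumulus and granulosa cell markers was also higher after knockdown, at 57.2 and 57.6 FPKM against 33.7 and 20.8 FPKM, and its part in the values of the integrins, CDH2 and CDH11 was not tested.

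ITGAV, the chain shared by vitronectin receptors, was at 5.61 and 4.96 FPKM against 14.0 and 11.5 FPKM (log2 fold change 1.13, SE 0.188, limma adjusted p 0.0970). ITGA6, which forms laminin receptors, was at 2.15 and 1.34 FPKM against 4.91 and 4.45 FPKM (log2 fold change 1.06, SE 0.231, limma adjusted p 0.127). Neither overlapped between groups, and the controls lay closer together for ITGAV than for ITGA5. ITGA3, another laminin receptor chain, was at 2.46 and 0.989 FPKM against 4.09 and 2.91 FPKM, and ITGB5 at 6.45 and 3.90 against 8.50 and 9.04 FPKM. ITGB3, a second beta partner of ITGAV and the most abundant integrin of the controls, was at 32.8 and 25.3 FPKM in the controls against 28.2 and 24.7 FPKM in KDM5_KD, with overlap. ITGA2B, the platelet-type alpha partner of ITGB3, was the integrin below the controls, at 3.57 and 2.90 FPKM against 2.86 and 2.07 FPKM. ITGB8, another partner of ITGAV, was high in 1 library only, with 1.77 and 0.953 FPKM against 4.49 and 1.53 FPKM. The ratio of ITGB1 to ITGB3 was 0.804 and 0.752 in the controls against 1.86 and 2.14 after knockdown, so the order of these beta chains was exchanged. ITGAV over ITGB3 went from 0.171 and 0.196 to 0.496 and 0.467. These pairs of genes were chosen after their values were seen.

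**Figure D2:**
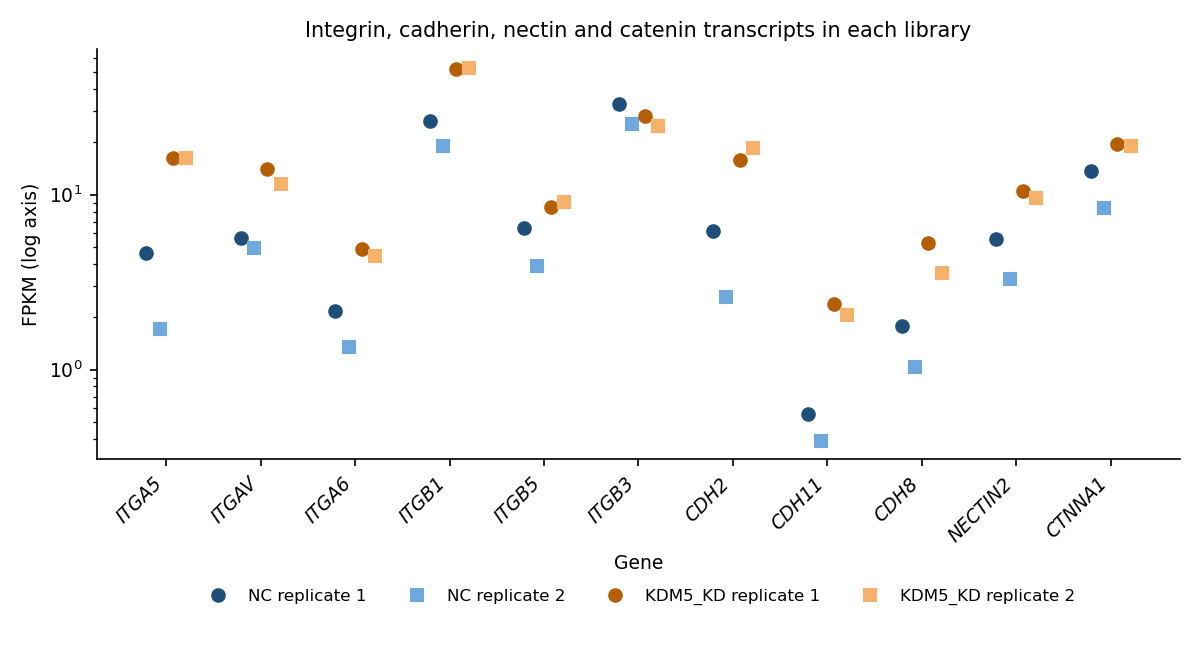
FPKM of 11 integrin, cadherin, nectin and catenin genes in each of the 4 libraries, on a log axis (circles are replicate 1, squares replicate 2; blue NC, orange KDM5_KD). Except for ITGB3, both orange points lie above both blue points for each gene, and NC replicate 1 lies above NC replicate 2.

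**Figure D3:**
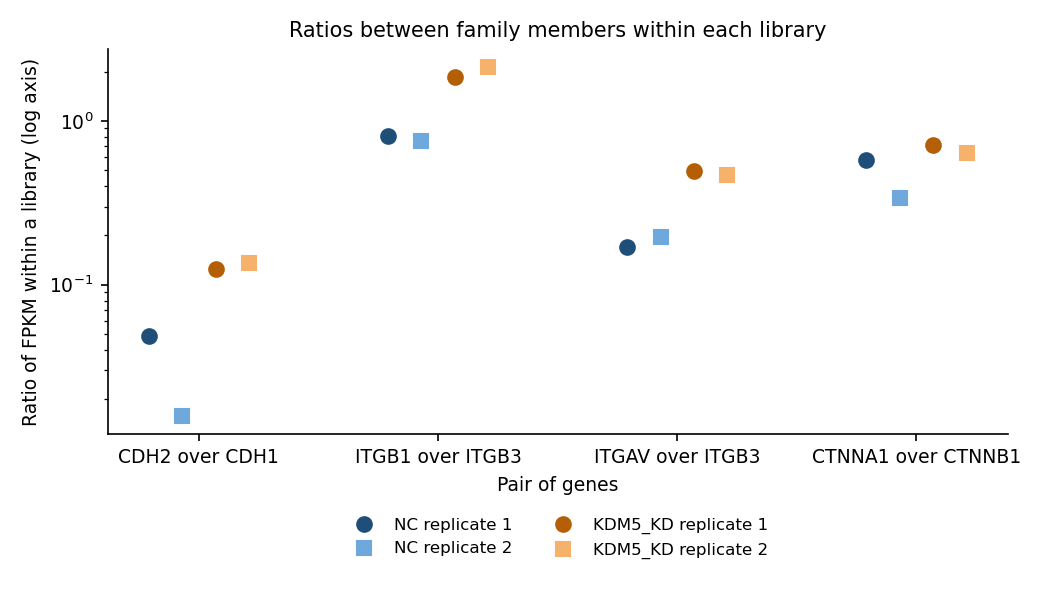
Ratios of FPKM between pairs of genes within each library, on a log axis, with 1 point per library. CDH2 over CDH1, ITGB1 over ITGB3, ITGAV over ITGB3 and CTNNA1 over CTNNB1 are all higher in both knockdown libraries, and for the last pair NC replicate 1 at 0.580 is close to KDM5_KD replicate 2 at 0.640.

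Catenins connect cadherins to actin, and CTNNA1 (alpha-catenin) is the actin-binding link. It was at 13.6 and 8.34 FPKM in the controls, and 19.5 and 18.9 FPKM in KDM5_KD (log2 fold change 0.79, SE 0.237, limma adjusted p 0.192). CTNNB1 (beta-catenin) was at 23.5 and 24.5 FPKM against 27.3 and 29.5 FPKM, a difference of 0.23 (SE 0.133, limma adjusted p of 0.420). Both had no overlap between groups. CTNND1 (p120-catenin) and JUP, which replaces beta-catenin in desmosomes, overlapped. CTNND1 had 14.5 and 16.3 FPKM in NC compared with 15.4 and 20.7 FPKM in KDM5_KD, and JUP 31.2 and 25.1 against 33.9 and 27.4 FPKM.

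Of the nectins, immunoglobulin-type adhesion proteins, a pair was tested. NECTIN2 was at 5.60 and 3.29 FPKM in the controls against 10.5 and 9.61 FPKM in KDM5_KD (log2 fold change 1.05, SE 0.252, limma adjusted p 0.141). NECTIN1, the more abundant of them, was at 31.1 and 22.0 FPKM against 29.7 and 19.0 FPKM, with replicates further apart than the groups. Whether the 2 nectins differ in their response was not tested.

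Protocadherins, a large family of weakly adhesive cadherin relatives, lay on both sides of the controls. PCDH8 was the third most abundant member, at 103 and 112 FPKM in the controls, and 70.6 and 67.2 FPKM in KDM5_KD. Both knockdown values were below both controls, and the replicates were close (log2 fold change -0.64, SE 0.116, limma adjusted p 0.107). PCDH1 was at 1.13 and 2.23 FPKM against 0.434 and 0.552 FPKM (log2 fold change -0.81, SE 0.264, limma adjusted p 0.210). PCDH10, at 41.9 and 44.0 against 48.6 and 40.7 FPKM, and PCDH17, at 18.0 and 9.71 against 16.9 and 13.5 FPKM, are protocadherins of the delta group and overlapped. A pair of accessions carried the symbol PCDHGC3. NM_001114080 was at 3.34 and 1.73 against 6.34 and 6.23 FPKM and NM_001103334 at 19.3 and 11.6 against 15.7 and 24.8 FPKM. Genes of the gamma cluster share their last exons, so how reads were divided between these rows is uncertain. The first row had a log2 fold change of 1.08, and both summed by symbol gave 0.56 (limma adjusted p of 0.361).

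Claudins, the sealing proteins of tight junctions, were the group with the lowest median difference. Of 7 claudin rows tested, 3 lay below NC and none above, and this count was the same with median-ratio scaling and with quantile normalization. The share of all transcripts below NC was 15.6% as deposited and rose to 25.4% and 28.1% under these scalings. The share above was 35.1%, then 25.9% and 20.9%. CLDN4, among the 3, averaged under 1 FPKM in KDM5_KD and passed the filter only through NC. CLDN6, an epithelial claudin of early embryos and by far the most abundant here, was at 49.1 and 70.7 FPKM in NC compared with 40.5 and 46.3 FPKM in KDM5_KD. Its log2 fold change was -0.44 (SE 0.196, limma adjusted p of 0.322), and NC replicate 2 was well above the other libraries. Without NC replicate 2 it was -0.18. CLDN4 was at 1.98 and 4.13 FPKM against 0.702 and 1.26 FPKM (log2 fold change -0.996, SE 0.321, limma adjusted p 0.209), and its difference was -0.60 without NC replicate 2. Its neighbour CLDN3 was at 0.937 and 2.63 FPKM against 0.469 and 1.63 FPKM, with overlap. Both of these adjacent genes were higher in replicate 2 than in replicate 1 within each group. CLDN5, known best from endothelium, was at 2.81 and 1.70 FPKM against 1.37 and 1.54 FPKM, a difference of -0.39, or -0.14 without NC replicate 1. The other claudins tested, CLDN7, CLDN10 and CLDN12, overlapped between groups, with log2 fold changes of 0.17, 0.15 and 0.35, the first pair below 0 after quantile normalization.

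Occludin (OCLN), another tight junction membrane protein, was on the other side. It had 18.7 and 13.1 FPKM in the controls against 22.3 and 27.6 FPKM in KDM5_KD (log2 fold change 0.63, SE 0.211, limma adjusted p 0.218). F11R, which encodes junctional adhesion molecule A and was the member with the second highest level, was at 93.4 and 110.4 FPKM against 100.6 and 91.9 FPKM. EPCAM, an epithelial adhesion protein that binds claudins, was at 26.3 and 27.0 FPKM against 30.6 and 26.3 FPKM. Both overlapped. The related adhesion molecule JAM2 was at 10.8 and 11.5 FPKM against 12.1 and 12.2 FPKM, without overlap except under both scalings, and JAM3 was at 5.33 and 2.77 against 5.76 and 4.88 FPKM, with overlap. Cingulin (CGN), a cytoplasmic plaque protein, was at 2.09 and 3.59 FPKM against 2.23 and 2.35 FPKM, with overlap. Over all 16 tight junction rows tested, 3 lay above NC and 3 below, compared with 1 and 4 under median-ratio scaling and 1 and 5 after quantile normalization. For all transcripts the shares were 35.1% and 15.6%, then 25.9% and 25.4%, and 20.9% and 28.1%.

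**Figure D4:**
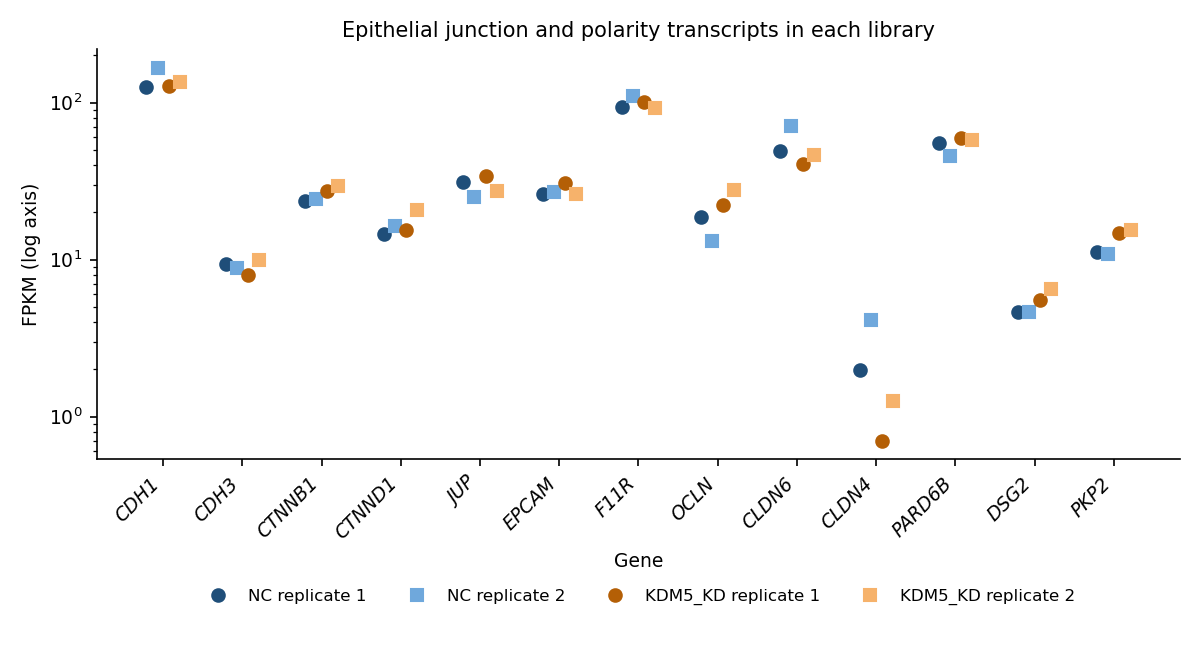
FPKM of 13 epithelial junction and polarity genes in each of the 4 libraries, on a log axis (circles are replicate 1, squares replicate 2; blue NC, orange KDM5_KD). CDH1 (126 to 166 FPKM) and F11R (91.9 to 110.4 FPKM) overlap between groups, while CLDN4 is lower and OCLN and PKP2 are higher in both knockdown libraries.

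Desmosomal genes were at low to moderate levels. PKP2 (plakophilin 2), the most abundant, was at 11.2 and 10.8 FPKM in the controls, and 14.8 and 15.4 FPKM in KDM5_KD (log2 fold change 0.43, SE 0.152, limma adjusted p 0.240). DSG2, the desmoglein of simple epithelia, was at 4.64 and 4.61 FPKM against 5.50 and 6.52 FPKM, without overlap except after quantile normalization. Its partner DSC2 was at 4.36 and 6.30 against 7.02 and 5.61 FPKM, with overlap. Desmoplakin (DSP), which anchors desmosomes to keratin filaments, stayed under the filter at 0.612 and 0.890 FPKM in NC compared with 0.298 and 0.396 FPKM in KDM5_KD. Both knockdown values of DSP were below both controls, and DSP was not tested. PKP4, a plakophilin relative of p120-catenin, was at 10.7 and 7.25 FPKM against 10.2 and 11.5 FPKM, with overlap. DSC3 and CDH2 are adjacent genes, and DSC3 differed by 0.02 and CDH2 by 1.83. The difference between these neighbours was not tested.

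Of the polarity genes, PARD6B encodes an adaptor of the PAR complex and PRKCI the atypical kinase bound to it. PARD6B was at 55.2 and 45.9 FPKM in the controls against 59.8 and 57.6 FPKM in KDM5_KD, and PRKCI was at 1.49 and 2.18 against 2.48 and 3.03 FPKM. Neither overlapped, with limma adjusted p of 0.470 and 0.407, and PARD6B overlapped under median-ratio scaling and PRKCI after quantile normalization. CRB3, an apical transmembrane protein, did not exceed 0.356 FPKM in any library. AMOT (angiomotin), which holds the co-activator YAP in the cytoplasm, was at 4.48 and 4.21 FPKM against 5.30 and 9.20 FPKM. Its difference of 0.58 (SE 0.270, limma adjusted p of 0.333) came mostly from KDM5_KD replicate 2 and was 0.24 without it.

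The rule also took 6 tested rows whose names share letters with junction genes while their products are not junction components. They are CTNNBL1 (a spliceosome-associated protein), CTNNBIP1 (an inhibitor of beta-catenin in the nucleus), CTNNAL1 (an alpha-catenin relative), DSCC1 (a replication and cohesion factor), ITGB1BP1 (a protein that binds the beta-1 tail inside the cell) and CLDND1. CTNNBL1 was at 83.8 and 66.3 FPKM in the controls, and 93.4 and 66.9 FPKM in KDM5_KD. Only CLDND1, at 12.5 and 15.6 against 19.3 and 18.6 FPKM, and ITGB1BP1, at 22.9 and 24.0 against 20.9 and 20.2 FPKM, did not overlap between groups. Without these 6 rows the median difference of the members was 0.22, as with them.

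Among the 51 rows under the filter with a value above 0, both knockdown libraries were above both controls for 15 and below for 11 (29.4% and 21.6%). For all 3717 such transcripts the shares were 29.2% and 8.39%. None of these member values exceeded 1.38 FPKM. The share above was thus near the background, and the share below was larger than it. The collagen receptor chain ITGA2, among the 15 and picked after its values were seen, was at 0.274 and 0.254 FPKM in NC compared with 0.851 and 0.932 FPKM in KDM5_KD. DSP was among the 11 that lay below.

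Partner genes outside the rule were read from 4 lists of junction and integrin biology, and no gene of these lists passed the limma threshold. Of 13 tested adaptors that tie junctions and integrins to actin, 9 lay above NC and 1 below, with a median of 0.32. For all transcripts these shares were 35.1% and 15.6%, and the counts for polarity and Hippo partners were near them. ILK, the integrin-linked kinase, was at 4.03 and 1.21 FPKM against 9.25 and 7.91 FPKM (log2 fold change 1.52, SE 0.392, limma adjusted p 0.157), and FERMT2 (kindlin-2, an integrin activator) at 16.9 and 12.5 against 19.0 and 35.1 FPKM. Of 14 polarity partners 5 lay above and 1 below, with a median of 0.11. They included EZR (ezrin of the apical cortex), at 70.4 and 60.0 against 85.6 and 123.6 FPKM, and LLGL1, a basolateral protein, at 24.8 and 20.3 against 16.5 and 16.4 FPKM. Of 14 Hippo partners 6 lay above and 1 below, with a median of 0.19. The largest differences were in VGLL4, a repressor of TEAD factors, at 33.6 and 21.0 against 35.3 and 69.5 FPKM, and in the YAP target ANKRD1 at 1.36 and 0.658 against 4.10 and 1.56 FPKM. Of 7 tight junction and nectin-like partners 2 lay above and none below, with a median of 0.10. ALCAM was at 0.857 and 0.195 against 2.31 and 2.93 FPKM, and CADM1, at 5.15 and 2.95 against 5.62 and 4.996 FPKM, overlapped. ALCAM averaged under 1 FPKM in NC and passed the filter only through KDM5_KD. At an unadjusted limma p under 0.05, 3 adaptors, 2 Hippo partners, 1 polarity partner and 1 nectin-like partner were higher, and 1 adaptor and 1 polarity partner were lower, of 13, 14, 14 and 7 tested, where the shares of all transcripts were 14.3% and 3.12%. Without NC replicate 1, ILK (log2 fold change 2.11, limma adjusted p of 0.0168) and ALCAM (1.59, limma adjusted p of 0.0365) passed the threshold. Without NC replicate 2 neither did, at 0.93 (limma adjusted p of 0.222) and 0.96 (limma adjusted p of 0.244). Without KDM5_KD replicate 2, the difference went from 0.79 to 0.36 for FERMT2, from 0.88 to 0.40 for VGLL4 and from 0.65 to 0.39 for EZR.

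The control libraries were not alike for the genes with the largest differences. NC replicate 1 exceeded NC replicate 2 for all 9 members that were at least 2-fold higher and for all 9 integrins tested. The same order held for 55.8% of all transcripts tested and 63.9% of the members tested. Among those that lay above NC it held for 66.3% of all transcripts and 75% of the members. Without NC replicate 1 the limma fit called 6 members higher: ITGA5 (log2 fold change 2.67, adjusted p of 0.00448), CDH2 (2.32, adjusted p of 0.00760), ITGB1 (1.42, adjusted p of 0.00940), CTNNA1 (1.11, adjusted p of 0.0397), NECTIN2 (1.37, adjusted p of 0.0410) and PCDHGC3 row NM_001114080 (1.42, adjusted p of 0.0434). The same fit called 3.6% of all transcripts higher, and in it the single control is assumed to vary like the knockdown group. Without NC replicate 2 no member was called, and ITGA5, CDH2 and ITGB1 were at 1.61, 1.33 and 0.97. The same omission moved CTNNA1 from 0.79 to 0.46, ITGA3 from 0.77 to 0.37, ITGB5 from 0.69 to 0.39, OCLN from 0.63 to 0.39 and PCDH1 from -0.81 to -0.51. Leaving out KDM5_KD replicate 2, whose labels disagree, gave 2.15 for ITGA5, 1.72 for CDH2 and 1.19 for ITGB1, and no call.

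Markers of cumulus and granulosa cells, the somatic cells that surround the oocyte, were also read. Of the 16 listed markers all had a row and 10 were tested, of which 8 lay above NC and none below, with a median log2 fold change of 0.96. For all transcripts the shares above and below were 35.1% and 15.6%. The summed level of the 16 markers was 33.7 and 20.8 FPKM in the controls against 57.2 and 57.6 FPKM in KDM5_KD. VCAN was at 0.811 and 0.524 against 3.93 and 2.71 FPKM, and GREM1 at 0.661 and 0.483 against 3.66 and 2.30 FPKM. VCAN and GREM1 averaged under 1 FPKM in NC and passed the filter only through KDM5_KD, where they were higher. Of the 4 defining markers, FSHR was listed at 0 in both NC libraries and at 0.0216 and 0.0443 FPKM in KDM5_KD, and CYP19A1 did not exceed 0.0602 FPKM. FOXL2 was at 0.660 and 0.491 against 1.07 and 1.25 FPKM, and AMH at 2.77 and 1.12 against 1.28 and 0.957 FPKM. The sums of some other lists were likewise higher in both knockdown libraries, with NC replicate 2 lowest. The oocyte and embryo markers summed to 499 and 392 FPKM in the controls against 593 and 617 FPKM, the actin adaptors to 326 and 295 against 348 and 352 FPKM, and the Hippo partners to 188 and 161 against 208 and 232 FPKM.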

How the data were processed

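The deposited table gives FPKM for 14517 RefSeq accessions in 4 libraries. The submitters' processing notes name Trimmomatic, HISAT2, featureCounts and Cufflinks without versions. How the authors used them, the genome build and the annotation are not given in the sources used here, so no coordinates are given. Polyadenylated RNA was captured with oligo(dT) and the libraries were amplified by PCR, per the labels' protocols. A RefSeq table of ARS-UCD2.0 gave symbols for 14295 accessions and was used for which genes are adjacent. No column of values was unused.

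Differences of log2(FPKM + 1) were tested with limma 3.58.1 (R 4.3.3), using a mean-variance trend, on all 8970 transcripts whose mean reached 1 FPKM, with Benjamini-Hochberg adjustment over all of them and a threshold of 0.05. The fit was tested on simulated data. Absolute depth is unknown, so precision rests on 2 libraries per group. Replicate numbers shared between groups are not stated to mark shared batches. Shared exons and overlapping genes can divide reads between rows.

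Members and lists were chosen with earlier results of these data known. Named members were fixed compaction and polarity genes, the 6 largest differences in each direction, the 6 highest levels and those matched by letters only. From each other list the 2 largest differences were named. A member under this rule is counted but not reported here by name. ITGA2, ITGA3, ITGB3, ITGB5, NECTIN1, PCDH10, ITGA2B, ITGB8, PCDH17, PCDHGC3, CLDN7, CLDN10, CLDN12, JAM2, JAM3, PKP4, DSC3 and CDH7 were added after their values were seen. Alternatives were another pseudocount (0.1), no filter or one at 5 FPKM, median-ratio scaling, quantile normalization, eBayes without a trend or robust, the replicate block, and each library left out. Leaving out microRNA rows and summing rows by symbol were added after seeing the data. Python 3.11.15 with pandas 2.3.3, numpy 2.4.6 and matplotlib 3.10.9 made the tables and plots.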

Additional observations from a re-analysis of the deposited data

How the results depend on the processing

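No member was called higher or lower under any of the 14 alternatives except without NC replicate 1, so the number called higher ranged from 0 to 6 with a library left out. With the replicate block the count of members called was 0. In that fit 8 transcripts of the whole table were higher and 4 lower, against 17 and 8. Same-numbered libraries deviated from their group means with a correlation of 0.229 across transcripts. Over the whole table the calls higher and lower were 2 and 1 without a filter, 6 and 6 without a trend, 11 and 8 with the filter at 5 FPKM, 37 and 9 with robust eBayes, 323 and 17 without NC replicate 1, 30 and 11 without NC replicate 2, 5 and 3 without KDM5_KD replicate 1, and 3 and 3 without KDM5_KD replicate 2.

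Of 61 rows, 24 lay above and 7 below NC. These counts became 39 and 18 of 112 rows without a filter and 15 and 3 of 35 rows with the filter at 5 FPKM. The shares of all transcripts under these filters were not computed, so these counts cannot be set against a background. Quantile normalization gave 17 and 14 of the 61 (27.9% and 23.0%), against 20.9% and 28.1% of all transcripts. With 1 library left out, 31 to 39 lay above and 11 to 13 below. With fewer values to separate, neither count can fall, so this rise says nothing about the members. The shares of all transcripts with a library left out were not computed. The 9 members at least 2-fold different in either direction became 12 with a pseudocount of 0.1, where 10 were higher and 2 lower. They became 5 with the filter at 5 FPKM and 5 after quantile normalization, where 3 were higher, and ranged from 4 to 13 with a library left out. The median difference of members, 0.22, was 0.083 without a filter, 0.11 with median-ratio scaling, 0.046 after quantile normalization and 0.093 to 0.24 with a library left out. The median of all transcripts shifted by -0.14 after quantile normalization and by -0.098 with median-ratio scaling.

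Of 928 single values for 67 named genes, 882 stayed on the same side of the threshold with the same sign, 13 newly passed and 33 reversed, in 20 genes. Median-ratio scaling gave -0.016 for CTNNAL1, -0.026 for CTNNBL1, -0.021 for EPCAM, -0.0766 for DSC3 and -0.060 for PCDH10. Quantile normalization gave -0.0039 for PCDH10, -0.16 for DSC3, -0.19 for CDH7, -0.090 for CLDN7, -0.15 for CLDN10 and -0.058 for JAM2. With a library left out the ranges were -0.34 to 0.053 for CDH1, -0.17 to 0.11 for CDH3, -0.48 to 0.088 for CGN, -0.88 to 0.022 for CLDN3, -0.14 to 0.44 for CLDN10, -0.15 to 0.32 for CTNNBL1 and -0.056 to 0.10 for DSC3. They were -0.0034 to 0.44 for DSC2, -0.018 to 0.19 for EPCAM, -0.20 to 0.041 for F11R, -0.30 to 0.057 for ITGB3, -0.030 to 0.27 for JUP, -0.0069 to 0.74 for JAM3, -0.45 to 0.17 for NECTIN1, -0.074 to 0.17 for PCDH10 and -0.24 to 0.59 for PCDH17. The cause of these changes was not tested, and the direction of these genes is not determined.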

Other observations

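Integrin ligand genes were read after the integrin values had been seen. Of 23 listed matrix genes, 16 had a row and 11 were tested. Of these, 10 lay above NC and none below, and their median log2 fold change was 1.17. COL1A2, among them, averaged under 1 FPKM in NC and passed the filter only through KDM5_KD. The share of all transcripts above NC was 35.1%, and 15.6% lay below. No ligand passed the threshold over all transcripts, and 9 were higher at an unadjusted limma p under 0.05, as were 14.3% of all transcripts. FN1, which encodes fibronectin, the ligand of the ITGA5 and ITGB1 pair, was at 1.81 and 0.944 FPKM in NC replicates 1 and 2 and at 13.8 and 7.66 FPKM in KDM5_KD replicates 1 and 2 (log2 fold change 2.28, SE 0.329, limma adjusted p 0.0826, 0.0438 with robust eBayes, 0.0269 without NC replicate 1 and up to 0.249 under the other alternatives). THBS1, which encodes thrombospondin 1, was at 5.85 and 0.893 FPKM against 23.4 and 24.5 FPKM, with NC replicate 1 again between NC replicate 2 and the knockdown libraries (log2 fold change 2.79, limma adjusted p of 0.114). It passed without NC replicate 1 (3.72, limma adjusted p of 0.00202) and without NC replicate 2 (1.87, limma adjusted p of 0.0326). VTN, which encodes vitronectin, was listed at 0 in all 4 libraries. Also under the filter, and picked after their values were seen, NID1 lay below NC and LAMB3 above. NID1 was at 1.01 and 0.503 FPKM against 0.112 and 0.183 FPKM. LAMB3 was at 0.688 and 0.250 FPKM against 1.03 and 0.692 FPKM.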
